A study of Mus musculus with 4 samples.

Results

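The 92 genes described here are mouse box C/D small nucleolar RNAs (snoRNAs), short RNAs that are kept in the nucleolus. They are the rows of the gene table whose symbol in the GENCODE M21 annotation (assembly GRCm38) starts with Snord and a number, without Snord55, Snord43, Snord49a and the snoRNAs in the introns of Rpl13a (Snord32a, Snord33, Snord34 and Snord35a). They are 92 of 47069 gene IDs, and all 92 are annotated as snoRNA. Of these, 51 had a count in at least 1 library and 41 were listed at 0 in all 4 libraries. The counted members split sharply, with 41 at 15 counts or more in all and 10 at 1 to 14 counts, and all 10 of the latter are copies of Snord116.

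Box C/D snoRNAs guide 2′-O-methylation of ribosomal RNA. Each has a box C near its 5′ end and a box D near its 3′ end. These boxes are brought together and bound by fibrillarin, Nop56, Nop58 and Snu13. A stretch just upstream of a box D (or of an inner copy, box D′) pairs with the target. The target nucleotide that pairs with the snoRNA base 5 positions upstream of the box is then modified. A few, such as U8 (Snord118), U13 (Snord13), U14 (Snord14) and U22 (Snord22), act in cutting or folding of the ribosomal precursor. Most mammalian box C/D snoRNAs are cut out of introns after splicing, so that 1 transcript gives both a host RNA and a snoRNA, while U8 and U13 are transcribed from their own promoters. Exosomes are small vesicles that cells release, and they are collected from the medium around the cells.

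Lewis lung carcinoma cells, an established mouse line, were grown as tumours under the skin of C57BL/6 mice and taken 3 weeks after inoculation, with no allele or treatment that would separate the mice. The exosome group (2 libraries) is RNA from material that tumour pieces released during 12 h in RPMI medium without serum, which was spun, passed through a 0.2 µm filter and precipitated with ExoQuick-TC, without ultracentrifugation, and the tumour group (2 libraries) is RNA from primary tumour. Adaptors were joined to the 5′ and 3′ ends of total RNA, and the amplified products were cut from a gel and sequenced. The series asked which gene signatures set the exosomes apart from the tumour. The exosome libraries held 305751 and 217201 counts and the tumour libraries 14543691 and 10849811. Whether replicates are separate animals is not stated, so p-values measure the spread between these libraries only, which may be technical. The libraries carry no molecular identifiers, so intervals and floors cover counting error only. Defining epithelial and exosome markers were at or near 0: in the tumour libraries the epithelial keratin Krt18 had 11 and 4 counts and Epcam and Cdh1 had none, and of 5 exosome proteins Cd63, Cd81 and Tsg101 had no count in the exosome libraries. The identity of neither sample type could therefore be checked from these markers.

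Annotated sequences are printed for members that were abundant in tumour, or for Snord100 among the exosome counts. Reads were not examined, so which part of each RNA was sequenced is not known here. Below are Snord83b (GRCm38, chr15:80078498-80078591, minus strand, in an intron of the ribosomal protein gene Rpl3), Snord110 (chr2:130275506-130275573, plus strand, in an intron of Nop56), Snord49b (chr11:62603079-62603150, plus strand, within the noncoding gene 2410006H16Rik) and Snord100 (chr10:23785750-23785823, minus strand, within Rps12), with box C (TGATGA) and the last box D (CTGA) in capitals.
Snord83b: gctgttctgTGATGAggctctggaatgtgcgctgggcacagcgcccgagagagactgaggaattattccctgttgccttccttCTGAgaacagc
Snord110: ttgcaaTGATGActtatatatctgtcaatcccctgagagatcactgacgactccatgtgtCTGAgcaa
Snord49b: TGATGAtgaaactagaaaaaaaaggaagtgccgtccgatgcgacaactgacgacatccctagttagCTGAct
Snord100: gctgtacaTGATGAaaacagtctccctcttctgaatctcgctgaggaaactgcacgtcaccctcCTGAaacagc
The letters TGATGA within the first 30 bases and CTGA within the last 20, read on the RNA strand, were both found in 65 of the 91 members between 60 and 150 bases (71.4%). The same pair was found in 0 of 37 box H/ACA genes and in 2 of 3376 transcripts of small nuclear RNA, microRNA and other small RNA genes of that length (0.0592%). A missing match says only that these letters are not in that window, since both boxes vary by a base in many snoRNAs.

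In the tumour the members made up 18.6% ± 0.307 (SD, n = 2) of all counts. They held 2738100 counts in tumour replicate 1 and 1995544 in replicate 2, which is 18.8% and 18.4% of the libraries. A few members carried most of this: the leading 5 held 71.5% and 72.2% of member counts and the leading 10 held 86.3% and 86.7%. On the scale of the deposited FPKM, which is per length and per library total, Snord83b was highest, at 661781 and 632160. Snord110 followed at 440077 and 463617, Snord49b at 232957 and 208776, Snord73a at 200026 and 196627, and Snord66 at 162389 and 178821. The order of these 5 was Snord83b, Snord110, Snord49b, Snord73a, Snord66 in both libraries, and the ranges over the libraries of Snord49b and Snord73a came closest to each other without overlapping. The median FPKM of the 41 members with 15 counts or more was 11343 and 10589, and the lowest was Snord17 at 116 and 66.6. Replicates were close, with 38 of 41 members within a ratio of 1.25 of each other in CPM (the count divided by the library total and scaled to a common total of 1e6), and Spearman's rho over the 41 members, which share the 2 libraries, was 0.998.

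In the exosome libraries the same genes held 545 and 382 counts, which is 0.178% (exact Clopper-Pearson 95% interval 0.164 to 0.194) and 0.176% (0.159 to 0.194) of the counts. Had they kept their tumour share, they would have given 56899 and 40420 counts at these depths. All 41 measured members would then have had at least 3 counts in each exosome library, yet 8 had none in replicate 1 and 13 had none in replicate 2. In each exosome library 40 of the 41 had fewer counts than the tumour share would give, and the exception in both was Snord118. The same count was not made over all genes. In the test described below, with library totals, 11.5% of all tested genes were called lower in exosomes and 63.8% higher. With 2 libraries per group an exact permutation test of the share cannot go below p = 0.333, and the ranges of the groups did not overlap. In such bulk libraries, fewer cells or vesicles that hold an RNA and less of it in each cannot be told apart.

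**Figure D1:**
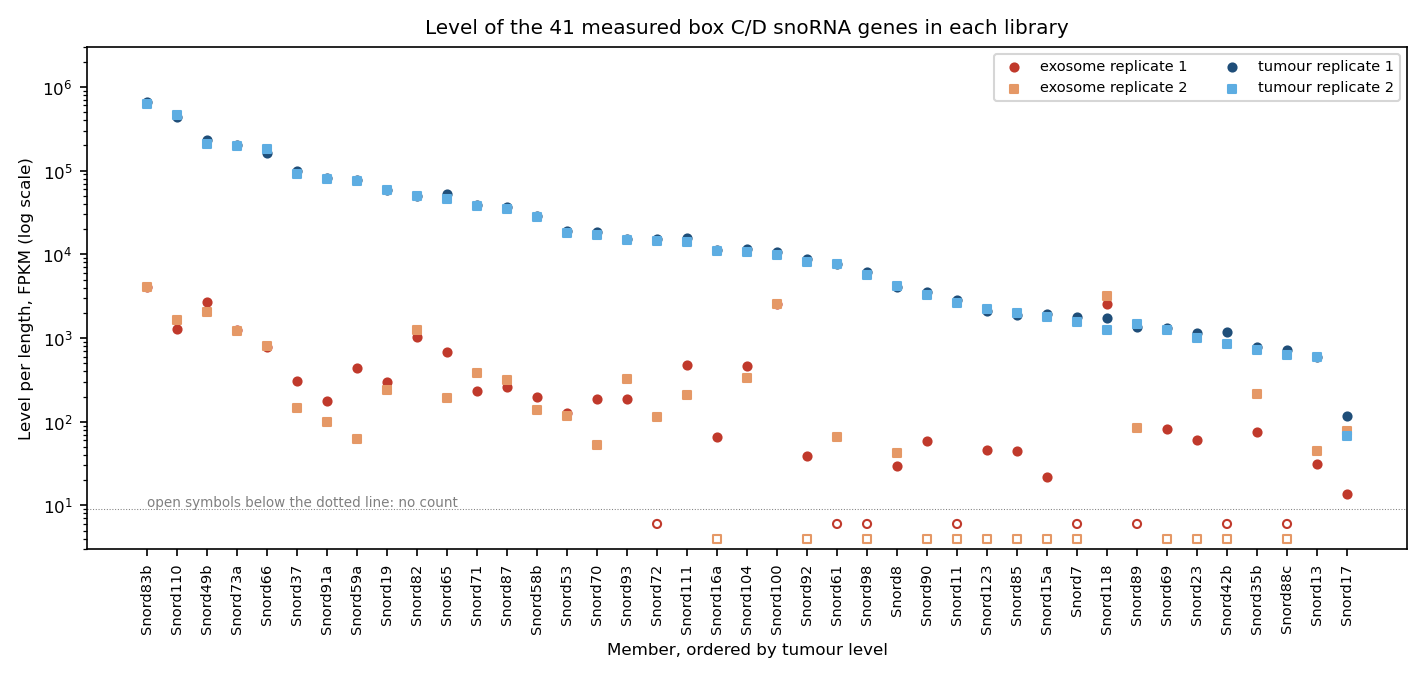
Level per length (FPKM, log scale) of the 41 members with 15 counts or more in each of the 4 libraries, ordered by tumour level, with open symbols for libraries with no count. Tumour values run from 66.6 to 661781, the exosome values of 39 members lie below both tumour values, those of Snord17 overlap them, and those of Snord118 lie above them on this scale. The share of all genes with such a gap was not counted.

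All 41 measured members entered the test over 1442 genes, and all 41 were called lower in exosomes with TMM scaling (edgeR's quasi-likelihood test, Benjamini-Hochberg adjusted over all tested genes at 0.05), where 22.1% of tested genes were called lower. None was called higher, against 16.0% of tested genes, and none had an unadjusted p under 0.05 in that direction. DESeq2, which called 12.9% of its genes lower and 7.77% higher, also gave 41 lower and 0 higher among the members. Of the 41, 25 had a count in both exosome libraries, and 11 of these also reached the filter's minimum of 15 counts in the exosome libraries alone. The other 30 passed the filter on low counts only with the tumour libraries, where they are high, so the count over all 41 is a description. The median log2 difference (exosome minus tumour) was -9.84, and it was -9.35 with the 5 members that had no exosome count set at their bound, beside 0.02 over all tested genes. Among the 36 members with an exosome count the fitted differences ran from -11.89 (Snord91a) to -1.88 (Snord118).

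The scaling sets the size of these differences and, for Snord118, the direction. The TMM factors of the exosome libraries were 2.41 and 2.93 and those of the tumour libraries 0.388 and 0.365, and scaling to library totals moves the median of all tested genes by 2.74 on the log2 scale, to 2.75. With library totals 39 members were lower (11.5% of tested genes were) and 1 was higher (63.8% of tested genes were), and the median over the members was -7.08, or -6.61 with the 5 at their bound. The member called higher was Snord118, and the one no longer called was Snord17, at -1.18 ± 0.68 (SE, adjusted p = 0.104).

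Snord83b, carried by Rpl3, had 117 and 84 counts in exosomes and 904726 and 644729 in tumour. Its log2 difference was -10.09 ± 0.26 (SE, adjusted p = 8.32e-08), and its tumour share would have given 18594 and 13209 counts at exosome depth. Snord110, carried by the gene for the particle protein Nop56, had 27 and 24 counts against 435223 and 342051. Its log2 difference was -11.08 ± 0.26 (adjusted p = 7.80e-08). For both genes the groups are far apart and the replicates within a group are close.

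Snord49b and Snord65 come from the same noncoding transcript, 2410006H16Rik. Snord49b had 60 and 32 counts in exosomes against 243940 and 163093 in tumour, a log2 difference of -9.29 ± 0.29. Snord65 had 15 and 3 counts against 54970 and 36004, a log2 difference of -9.47 ± 0.37. The 2 snoRNAs thus differed from tumour by sizes that lie within each other's SE, although their tumour levels per length differ (232957 and 208776 FPKM against 52495 and 46089).

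Snord73a, carried by Rps3a1, had 26 and 18 counts against 197820 and 145069 (log2 difference -10.11 ± 0.24). Snord66, carried by the translation initiation gene Eif4g1, had 18 and 13 against 177130 and 145513 (-10.54 ± 0.26). Snord19, carried by the nucleolar protein gene Gnl3, had 7 and 4 against 65382 and 48631 (-10.51 ± 0.26). None of the 3 has a replicate that approaches the other group.

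Snord91a, carried by the ribosome biogenesis gene Tsr1, had 5 and 2 counts in exosomes against 109167 and 80307 in tumour. Its log2 difference of -11.89 ± 0.29 was the furthest below 0 among members with an exosome count. Snord37, carried by the elongation factor gene Eef2, had 6 and 2 counts against 91328 and 63049 (-11.40 ± 0.30). Snord59a, carried by the ATP synthase gene Atp5b, had 10 and 1 against 83481 and 59709 (-10.84 ± 0.41), and its exosome replicates differed 7.10-fold in CPM. Counts this low limit precision: 26 of the 41 members had fewer than 10 exosome counts in all.

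No count was found for 5 members (Snord98, Snord11, Snord7, Snord42b and Snord88c) in either exosome library. Snord98, carried by Ccar1, had 5797 and 3986 tumour counts, and with a floor of 3 counts per exosome library it was at least 228-fold lower with TMM scaling and at least 32.4-fold lower with library totals. Snord11, carried by Nop58, had 3517 and 2374 tumour counts and was at least 137-fold lower (19.5-fold with library totals). Snord7, within the noncoding gene AA465934, had 2507 and 1614 and was at least 95.5-fold lower (13.6-fold). Snord42b was at least 41.2-fold lower (5.87-fold) and Snord88c at least 35.9-fold lower (5.11-fold). A weaker reduction than for the leading members could not have been told from theirs at this depth.

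**Figure D2:**
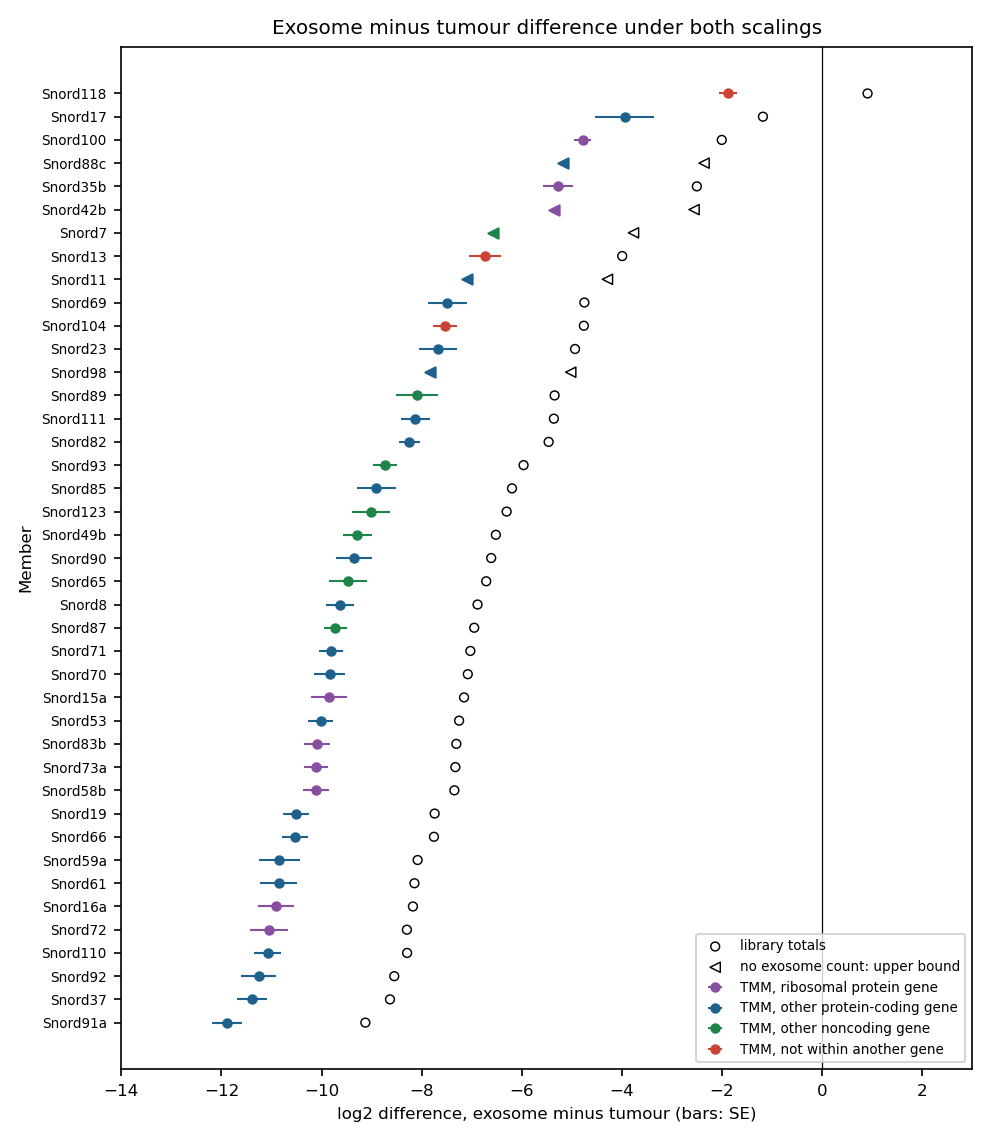
Log2 difference (exosome minus tumour) of each of the 41 tested members with TMM scaling (filled points, bars are SE, colour is the kind of host gene) and with library totals (open circles), with triangles for the 5 members without an exosome count, which mark the highest value that a floor of 3 counts allows. Values with TMM scaling lie between -11.89 and -1.88, and Snord118 is at -1.88 with TMM scaling and at 0.91 with library totals.

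Snord118, the U8 snoRNA that is needed for maturation of the large-subunit ribosomal RNAs, stood apart from the other members. It lies on chr11:69073427-69073561 (plus strand, GRCm38), is 135 bases long and is not within another annotated gene. Its sequence is shown because it differs from those printed above, with its TGATGA further from the 5′ end than the 30-base window. Some leading members in tumour, such as Snord91a and Snord19, also lack TGATGA in that window. The capitals mark the last CTGA.
Snord118: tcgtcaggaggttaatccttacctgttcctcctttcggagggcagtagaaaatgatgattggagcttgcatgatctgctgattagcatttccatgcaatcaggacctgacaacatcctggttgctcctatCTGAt
It had 105 and 92 counts in exosomes and 3425 and 1839 in tumour. In CPM it was at 343 and 424 in exosomes and 235 and 169 in tumour, so both exosome libraries were above both tumour libraries on that scale. Its log2 difference was -1.88 ± 0.18 (adjusted p = 7.43e-05) with TMM scaling and 0.91 ± 0.25 (adjusted p = 0.00145) with library totals. Per length it ranked 4 and 2 of the 41 members in the exosome libraries and 33 and 35 in the tumour libraries. A second gene, Gm24208, is 96.2% identical to it over 133 bases and had 5, 3, 113 and 25 counts in the same order of libraries, so that reads of the pair may have been split between them.

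Snord100, carried by Rps12, had 58 and 41 counts in exosomes against 11422 and 7918 in tumour. Its log2 difference was -4.78 ± 0.18 (adjusted p = 2.67e-07), and per length it ranked 3 in both exosome libraries and 22 in both tumour libraries. Snord17, the longest member at 238 bases and carried by Snx5, had 1 and 4 counts against 401 and 172 (-3.94 ± 0.58, adjusted p = 0.000945). Snord35b had 2 and 4 counts against 982 and 685 (-5.27 ± 0.29). With Snord118 these are the 4 members whose fitted difference was above -6 with TMM scaling, and no others with an exosome count were.

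To see which members are more or less represented among the snoRNAs that were found in exosomes, the libraries were also scaled to the summed counts of the 92 members, a comparison added after the data were seen. Snord118 made up 19.3% and 24.1% of member counts in exosomes and 0.125% and 0.0922% in tumour. Snord100 made up 10.6% and 10.7% against 0.417% and 0.397%. Snord83b made up 21.5% and 22.0% against 33.0% and 32.3%, and Snord110 4.95% and 6.28% against 15.9% and 17.1%. Snord49b was at 11.01% and 8.38% against 8.91% and 8.17% and was not called. Snord83b and Snord110, abundant in tumour, thus had a smaller share in exosomes. Snord118 and Snord100, which held 0.417% or less of member counts in tumour, had a larger one. Shares of a whole move against each other by construction.

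In that fit 8 members were relatively higher, 8 relatively lower and 25 not called. On this scale 89.3% of all tested genes were higher and 1.46% lower, so that adjustment over all genes changes p-values little. The 5 that stayed higher in all 7 alternatives were Snord118 (log2 7.63 ± 0.29), Snord100 (4.71 ± 0.27), Snord35b (4.21 ± 0.85), Snord104 (1.96 ± 0.47) and Snord82 (1.25 ± 0.31). The 3 that stayed lower in all 7 were Snord110 (-1.58 ± 0.29), Snord91a (-2.41 ± 0.47) and Snord37 (-1.92 ± 0.46). The remaining calls were found in fewer alternatives. Among the higher, Snord17 was called in 6 of 7, Snord111 in 4 and Snord13 in 0. Among the lower, Snord66 was called in 6 of 7, Snord59a in 5, Snord83b in 3, and Snord73a and Snord19 in 1 each. Snord91a (5 and 2 exosome counts), Snord37 (6 and 2), Snord59a and Snord19 passed the filter only with the tumour libraries, where they are high. Their lower calls are therefore a description. Snord35b, Snord17 and Snord13 among the higher also passed only with the tumour libraries. The 7 alternatives reuse the same counts and are no separate evidence. Over the 41 members Spearman's rho between mean CPM in tumour and in exosomes was 0.687, and between the exosome replicates it was 0.802. Both describe members that share libraries and depth.

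**Figure D3:**
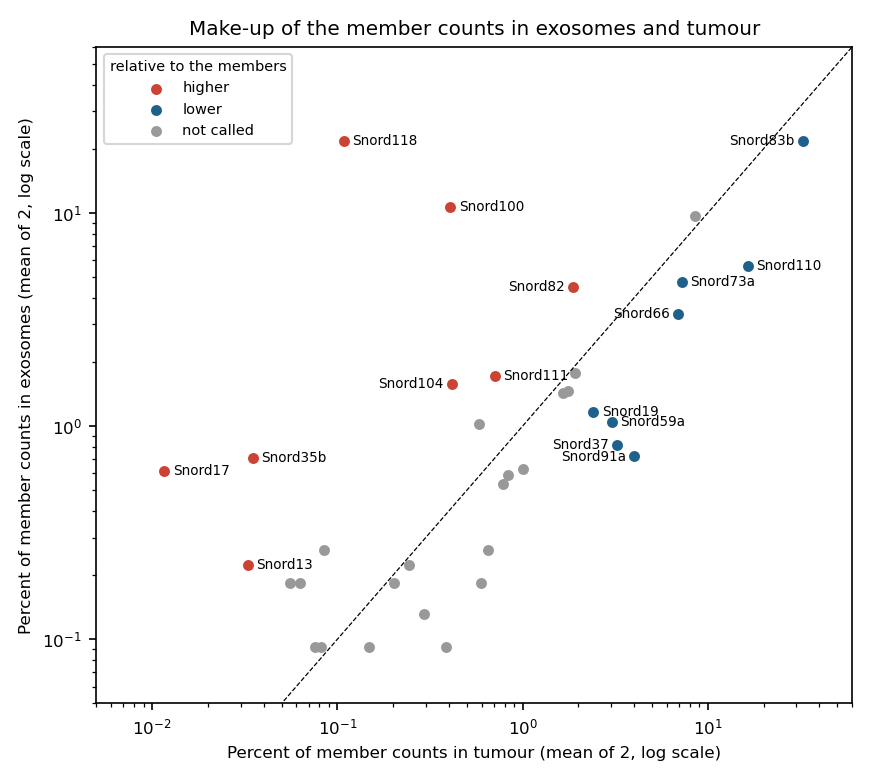
Percent of all member counts held by each of the 36 members with an exosome count, in tumour (x axis) and in exosomes (y axis), as means of 2 libraries on log scales, with a dashed line of equal share and colours for the call relative to the members together. Snord118 and Snord100 lie furthest above the line in absolute share, and Snord110, Snord91a and Snord37 lie below it.

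The members were next described by the gene that carries them. Of 16 members within ribosomal protein genes on the same strand, 9 were tested and all 9 were lower, with a median log2 difference of -10.11. Of 35 within other protein-coding genes, 22 were tested and all 22 were lower, with a median of -10.26. Of 33 within noncoding genes other than Gas5 and Snhg1, 7 were tested and all were lower, with a median of -9.29, of which Snord49b, Snord65 and Snord87 are the most abundant. With TMM scaling 22.1% of all tested genes were called lower. Since 30 of the 41 members passed the filter only with the tumour libraries, these counts per class are a description. With members lacking an exosome count at their bound, these 3 medians were -10.09, -9.72 and -9.01, beside -9.35 over all 41. Snord58b, within Rpl17, and Snord72, within Rpl37, behaved like the other members in ribosomal protein genes, at -10.11 ± 0.26 and -11.04 ± 0.38.

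The 3 members that lie within no other gene were Snord118, Snord13 and Snord104, with a median of -6.74. Snord13, the U13 snoRNA, had 1 and 1 counts in exosomes against 888 and 664 in tumour (-6.74 ± 0.33). Snord104 had 10 and 5 against 11696 and 8042 (-7.53 ± 0.24). Their direction and calls held for Snord13 and Snord104 with library totals, and Snord118 was then higher in exosomes. With 3 genes and 2 libraries per group, no test of the difference between host classes was made.

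The counts of snoRNAs exceeded those of the transcripts that carry them. In the tumour the ratio of member counts to host counts had a median of 841 over 35 tested members with a host count, from 21.1 to 101758. Of the 34 host genes of tested members, 16 were tested and their median log2 difference was -0.40. Eef2, the host of Snord37, was called higher in exosomes with 51 and 33 counts against 206 and 96 (1.01 ± 0.28, adjusted p = 0.023). Rpl3 (-1.10) and Rps3a1 (-2.51) were called lower with TMM scaling, and with library totals both were above 0. The 16 hosts include 12 that passed the test in neither direction. Rpl3 and Rps3a1 thus differed by far less than Snord83b (-10.09) and Snord73a (-10.11), which they carry.

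The proteins of the box C/D particle were read only as messenger RNA, which is scarce in these size-selected libraries. Of 25 listed genes of core, assembly, transport and trimming factors found in the table, 13 had no count in exosomes and 4 were tested. None was lower and 1, Nolc1, a nucleolar chaperone of snoRNA particles, was higher, with 5 and 2 counts against 7 and 3 (2.27 ± 0.59, adjusted p = 0.0185), a call that DESeq2 (adjusted p = 0.663) and the fit without a filter (adjusted p = 0.683) did not give. Xpo1, the nuclear exporter, had 6 and 5 counts against 8 and 14 (1.78 ± 0.63, adjusted p = 0.063 with TMM scaling, 7.93e-03 with the replicate number as a block and 1.76e-07 with library totals). Nop56 had 1 and 1 counts against 24 and 26, at -1.80 ± 0.79 with TMM scaling and 0.94 with library totals, called under neither, and it was called lower in the fit without a filter (-2.94, adjusted p = 0.00756). Pih1d1, an assembly factor, had 4 and 1 counts in exosomes and none in tumour and was not tested.

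The snoRNAs that process the ribosomal precursor were mostly without counts. Of 7 members of this list, Snord22 and the 4 copies of Snord14 (Snord14a, Snord14c, Snord14d and Snord14e) were listed at 0 in every library, and Snord118 and Snord13 were tested. Of the 19 members in the imprinted region homologous to the human Prader-Willi locus, which in adult tissue is known for expression in neurons, 9 were at 0 and 10 had 1 to 14 counts in all. Its 17 Snord116 copies had 9 counts in tumour replicate 1, 6 in replicate 2 and none in exosomes. These copies are near identical, so counts among them cannot be assigned with certainty. The table held no member of the imprinted Dlk1-Dio3 region.

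The 41 members at 0 were compared with the counted ones by position in the annotation. Of the 41, 7 are Snord116 copies and the other 34 all overlap an annotated exon of another gene by at least 50% of their length, and 33 of them do so over their whole length. Of the 41 members with 15 counts or more, 8 overlap such an exon at all and 5 do so fully (Snord19, Snord16a, Snord100, Snord69 and Snord35b). None of the 17 Snord116 copies overlaps one. Box H/ACA genes showed a like split, with 20 of 22 genes at 0 and 4 of 17 with 15 counts or more overlapping an exon. In the tumour 3 counts, the limit that a 0 allows, are 0.206 and 0.277 CPM, and a 0 here is a value of the deposited table. Neither the annotation release nor the treatment of reads in overlapping genes is given in the sources used here, and the part of exon overlap in these zeros was not tested.

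**Figure D4:**
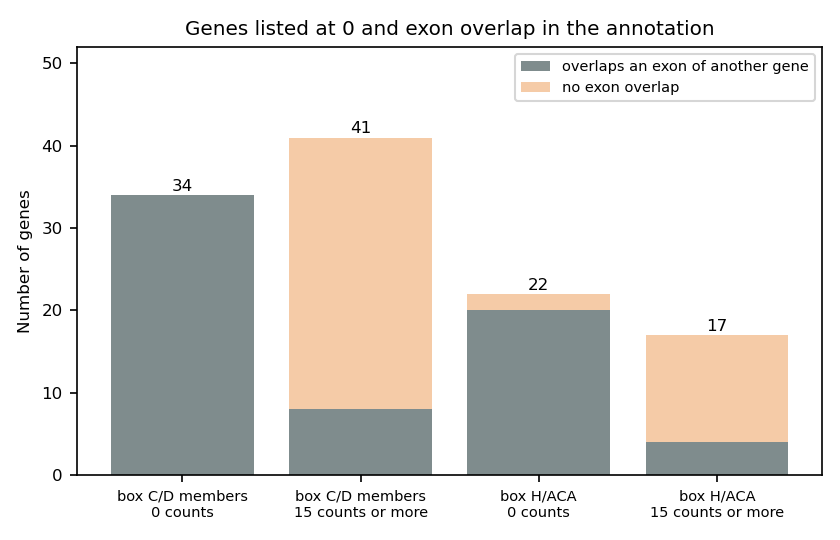
Number of genes listed at 0 in all 4 libraries and number with 15 counts or more, for the box C/D members without the Snord116 copies and for box H/ACA genes, split by whether the gene overlaps an exon of another gene in GENCODE M21. All 34 box C/D members at 0 overlap an exon and 8 of the 41 counted ones do.

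Neighbours within 1 host gene show the split most directly. Nop56 carries Snord110, which lies outside any exon and had 435223 and 342051 tumour counts, and Snord57, which lies fully within an annotated exon and had 0. Rps3 carries Snord15a, outside exons with 4112 and 2880 tumour counts, and Snord15b, inside an exon with 0. Rpl23a carries Snord42b, with 22 of its 69 bases in an exon and 1174 and 630 tumour counts, and Snord42a and Snord4a, which overlap an exon of Tlcd1 on the opposite strand and had 0. All 4 members within Gas5, a noncoding gene known for carrying many snoRNAs, lie in annotated exons and were at 0, while Gas5 itself had 31 and 24 tumour counts. Gnl3 is an exception, since Snord19 (65382 and 48631) and Snord69 (1529 and 1090) were counted although both overlap its exons fully.

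A second gene with the same sequence had counts for some members at 0. Snord50a (chr9:88521529-88521600, minus strand) lies in an exon of Snhg5, and Snord1c (chr11:116672506-116672581, plus strand) lies in an exon of 1810032O08Rik. They are printed because a read of either could have been assigned to 2 places, and capitals mark the boxes found.
Snord50a: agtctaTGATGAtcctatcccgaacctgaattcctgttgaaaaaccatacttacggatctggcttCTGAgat
Snord1c: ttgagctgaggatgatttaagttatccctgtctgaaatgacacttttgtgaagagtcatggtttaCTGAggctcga
Snord50a was at 0 in every library, as were Snord50b, Gm23017 and Gm26135, which are at least 98.6% identical to it and all lie in exons. Gm24463 (chr9:89075336-89075407, plus strand) is identical to Snord50a over all 72 bases, lies in no annotated gene or exon, and had 40 and 29 counts in exosomes and 369092 and 272162 in tumour. Gm24253 (chr11:56263165-56263240, minus strand) is identical to Snord1c over 73 bases, lies in no other gene, and had 1 and 0 counts in exosomes against 29234 and 20227 in tumour. Neither carries a Snord symbol, so neither is a member, and the tumour counts of Gm24463 lie between those of Snord110 and Snord49b. Which locus the RNA came from cannot be read from these counts. The sum over the 92 members is to that extent a lower limit of the box C/D RNA sequenced.

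The stretch that pairs with ribosomal RNA was looked for in the 18S sequence. A run of at least 11 bases ending within 2 bases of a CTGA and complementary to 18S was found in 19 of 91 members between 60 and 150 bases (20.9%), in 0 of 37 box H/ACA genes and in 4 of 3376 other small RNA transcripts (0.118%). It was found in 10 of the 41 counted members and in 9 of the 41 at 0. Of these, 4 are printed, 2 that share a target but differ in counts and 2 others without exosome counts or without any, with the pairing run in capitals.
Snord42b: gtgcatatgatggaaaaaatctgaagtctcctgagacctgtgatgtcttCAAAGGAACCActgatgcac
Snord42a: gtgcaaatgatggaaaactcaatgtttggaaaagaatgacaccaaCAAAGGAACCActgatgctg
Snord98: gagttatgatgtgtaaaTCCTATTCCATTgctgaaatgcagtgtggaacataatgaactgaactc
Snord57: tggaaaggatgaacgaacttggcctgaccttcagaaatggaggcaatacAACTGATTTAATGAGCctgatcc
Snord42b and Snord42a carry the same 11-base run, and in both the fifth base upstream of the box pairs with position 116 of the 1849-base 18S transcript, counted from 1 at its 5′ end. For Snord98 that position is 874 and for Snord57 it is 99. Among the leading members it is 1295 for Snord110, 1038 for Snord59a, 690 for Snord19 and 1685 for Snord82. A match describes letters only, and 28S was not searched.

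Medians of members with and without such a match depended on how members without exosome counts were treated. The 10 tested members with a match had a median log2 difference of -10.85 and the 31 without had -9.63, and with members lacking exosome counts at their bound the medians were -9.29 and -9.35. Length showed a shallow trend: the 8 tested members of 100 bases or more, among them Snord118, Snord13 and Snord17, had a median of -7.88, and the 33 shorter ones had -10.11, or -9.72 with the bounds. Spearman's rho over the 41 members was 0.287 between length and log2 difference and 0.279 for GC content. Both used fitted differences, not bounds, for the 5 members without exosome counts, all of which are under 100 bases. These are descriptions over genes that share the 4 libraries.

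Beside the other snoRNA sets, the members lay with the other box C/D genes. Snord55, Snord43 and Snord49a had a median log2 difference of -9.92 (3 tested) and the Rpl13a intron set -10.70 (3 tested). The box H/ACA genes, which guide pseudouridylation, had a median of -3.87 (14 tested, 11 lower and 1 higher), and the small Cajal body RNAs -3.16 (8 tested, 5 lower). These values are with TMM scaling, and with library totals the medians were -7.14, -7.94, -1.14 and -0.40 in the same order. Calls were then 4 lower and 2 higher for box H/ACA genes, and 3 lower and 3 higher for small Cajal body RNAs. With the 2 small Cajal body RNAs lacking exosome counts at their bound, that set's median was -2.69, or 0.11 with library totals. Members made up 15.6% ± 0.146 of all snoRNA counts in exosomes and 19.8% ± 0.455 in tumour (n = 2 each). No test was made of the difference between these sets. Among the cell type markers, the 5 fibroblast genes summed to 78.5 and 101 CPM in exosomes and 9.42 and 7.37 in tumour, and the 4 globin genes to 268 and 470 against 113 and 80.5. The direction of the globin genes depended on the scaling: with TMM their median log2 difference was -0.95 and 2 of 4 were called lower (Hba-a1 and Hba-a2), and with library totals all 4 were called higher. Of the 2 fibroblast genes tested, neither was called with TMM and both were called higher with library totals. The part of cell make-up in the members' difference was not tested.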

How the data were processed

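Gene counts and FPKM were read for 4 libraries, grouped by the labels into 2 exosome and 2 tumour libraries. The deposited counts are whole numbers per gene without normalization. The deposited FPKM were divided by the authors by each gene's length and the library total, and the length they imply matches the annotated length of each counted member within 0.089 bases. Per the submitters' processing notes, TopHat2 2.0.9, Cufflinks 2.1.1 and Cuffdiff were used with GRCm38.p4. The counting tool, gene annotation release, strand setting and treatment of reads with several matches are not stated in these sources.

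The test on counts was edgeR 4.0.16 (R 4.3.3, filterByExpr with minimum count 10 and minimum total 15, TMM, two-sided quasi-likelihood test, group as only term, Benjamini-Hochberg over all 1442 tested genes at 0.05). SE is the absolute log2 difference divided by the square root of F. Alternatives used DESeq2 1.42.0 and limma 3.58.1 on log2(FPKM + 1). The test was checked on simulated data. Symbols, positions and sequences come from GENCODE M21 (46488 of 47069 gene IDs had a symbol), and copies from blastn at 90% identity over 80% of the longer sequence.

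Members and lists were chosen with earlier results of these data known. Genes were named by rule: the 10 tested members highest in tumour, the 5 highest in exosomes, any called higher, up to 5 not called, the 3 highest in tumour without exosome counts, up to 3 per role or host list, and up to 4 particle protein genes. Snord17, Snord35b, Snord82, Snord111, the copies and the neighbours were named after their values were seen. Some others, such as Snord72, Snord88c and Snord16a, were also named outside the rule. The sample numbers of exosome and tumour libraries do not mark shared animals in the labels. The values of 1 host gene are not reported here.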

Additional observations from a re-analysis of the deposited data

How the results depend on the processing

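Over the main comparison, 41 members stayed lower (40 of 40 tested without either tumour library) with median-of-ratios scaling, TMMwsp, TMM without snoRNA genes, DESeq2, no filter, both 10-count filters, robust estimation, summed near-identical members and each library left out; library totals gave 39 lower and limma 37. The count higher rose from 0 to 1 with library totals and with limma on log2(FPKM + 1), and was 0 in the others. That member was Snord118, at 0.91 and 0.93 (adjusted p = 0.0441 with limma), and Nop56 turned to 0.94 and 0.15. The median of -9.84 became -7.08 with library totals, -10.02 with TMM without snoRNA genes, -10.03 with DESeq2, -7.40 with limma, -10.49 without a filter, and -9.40 and -9.39 with the 10-count filters, and ranged from -12.05 to -9.78 with 1 library left out, the lowest without tumour replicate 1 (-12.04 without tumour replicate 2). A group left with 1 library is assumed to vary like the other. The cause of these shifts was not tested. Exosome and tumour libraries share only a replicate number (r = -0.02 between same-numbered deviations over 1442 genes, 0.166 over 272 with 20 or more exosome counts), and the replicate block gave 41 lower, 0 higher and a median of -9.84.

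Relative to the members together, the count lower fell from 8 to 5 with the replicate block and to 5 with DESeq2, and ranged from 4 to 7 with 1 library left out (4 without tumour replicate 2, 5 without tumour replicate 1), while the count higher ranged from 6 to 7. The share was 15.6% (exosomes) and 19.8% (tumour) of snoRNA counts, and 34.0% in tumour without the sets left out of the rule. Each library alone gave 0.176% to 0.178% in exosomes. With at least 3 counts in a library 23 members were detected in exosomes, against 36 with 1. Depth limits the exosome values, where 1 count is 3.27 or 4.60 CPM.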

Other observations

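Some genes outside the rule carry or copy box C/D sequence and were measured. Mir3096, annotated as a microRNA, is 98.6% identical to Snord93 over 71 bases and had 3 and 2 counts in exosomes against 8483 and 6354 in tumour, while Snord93 had 4 and 5 against 15948 and 11507. Gm22354, 94.3% identical to Snord58b, had 0 and 0 against 40 and 28. The noncoding gene 1110038B12Rik, whose exon covers Snord52, had 27 and 11 counts against 75708 and 51560 (log2 difference -8.88 ± 0.30, adjusted p = 1.77e-07), while Snord52 was listed at 0. The other hosts of members at 0 had at most 253 counts in a tumour library (Rack1, 253 and 203).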
